A study of Mus musculus with 8 samples.

Results

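The CC chemokine ligands described here are 9 genes, Ccl2, Ccl3, Ccl4, Ccl5, Ccl6, Ccl7, Ccl8, Ccl9 and Ccl11, taken by symbol from the 55276 symbols kept in the RNA-seq tables. The tables came from fibro-adipogenic progenitors (FAPs), which are mesenchymal cells resident in muscle, sorted from tibialis anterior muscle 3 or 7 days post injury (dpi) in mice with 1 or no working copy of the gene for the transcription factor Osr1. The 4 groups were control FAPs (Osr1flox/+;CAGG-Cre+) and Osr1cKO FAPs (Osr1flox/flox;CAGG-Cre+) at 3 dpi and at 7 dpi, with 2 libraries in each group and 8 in all. Every group carried the CAGG-CreER transgene, which is active in most cell types and not in FAPs alone, and at least 1 floxed Osr1 allele, so the control was heterozygous after recombination and no Osr1 wild-type group was among the 8 libraries. The mice were 4 to 6 months old, received tamoxifen around the day of injury and were injured by freeze-pierce, a puncture with a cooled needle, and the sorted cells were GFP+ from the recombined Osr1 allele and negative for CD31, CD45 and TER119. A library was 1 mouse at 3 dpi and a pool of 4 mice at 7 dpi, and the methods name a pair of sequencing instruments, so day, pooling and possibly instrument cannot be told apart in any comparison of the days.

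CC chemokines are small secreted proteins that bind glycosaminoglycans and attract leukocytes bearing matching G protein-coupled receptors. Ccl2, Ccl7 and Ccl8 encode monocyte chemoattractant proteins, of which the products of Ccl2 and Ccl7 are known for calling monocytes out of blood. The product of Ccl11 (eotaxin) is known for attracting eosinophils, and the products of Ccl3, Ccl4 and Ccl5 act on monocytes, T cells and NK cells. Ccl6 and Ccl9 encode rodent chemokines that bind CCR1. In injured muscle, infiltrating monocytes clear dead fibers, and stromal cells as well as leukocytes can make the ligands that attract them.

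The values were TPM, a share of all transcripts corrected for gene length that sums to 1000000 in each library. The libraries held 36516528 to 51096358 fragments on genes, recovered from the low TPM values with annotated exon lengths. FAP markers (Pdgfra, Ly6a, Dcn, Lum, Cd34, Dpt, Col1a1 and Pdgfrb) summed to between 20905 and 37112 TPM, and Ptprc, which encodes CD45, lay between 0.00834 and 0.216 TPM in the 8 libraries. Osr1 itself averaged 98.0 TPM in control and 71.3 in Osr1cKO at 3 dpi, and 69.6 and 62.6 TPM at 7 dpi. These are whole-gene values that include sequence outside the floxed exon, so they check the deletion only in part. In bulk libraries like these, a lower share of cells that make a transcript and less of that transcript per cell cannot be told apart.

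The 9 genes lie in a pair of clusters on chromosome 11 of mm10 (GRCm38, coordinates from GENCODE). Ccl2 (82035571 to 82037453), Ccl7 (82045712 to 82047525), Ccl11 (82057823 to 82062955) and Ccl8 (82115185 to 82116799) follow each other on the plus strand. Ccl5 (83525778 to 83530518), Ccl9 (83572919 to 83578636), Ccl6 (83587882 to 83593087) and Ccl3 (83647844 to 83649355) lie on the minus strand of the second cluster, and Ccl4 (83662584 to 83664683) lies beside them on the plus strand. The longest annotated transcript has 3 exons for 7 of the genes and 4 exons for Ccl6 and Ccl9. On the opposite strand, Gm17268 overlaps Ccl2 and E230016K23Rik overlaps Ccl6, with 0 shared exon bases in both cases. Gm17268 was at 0 TPM in all 8 libraries, while E230016K23Rik had 0.477 to 2.12 TPM, a level like that of Ccl6. Whether the counting used strand was not stated in the sources used here. Whether reads from E230016K23Rik added to Ccl6 was not tested.

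The RefSeq promoter table (GRCm38.p6, short windows around a start, mostly before it) held 4 of the 9 genes: Ccl3, Ccl6, Ccl8 and Ccl9. A promoter of each cluster is printed here, because Ccl8 and Ccl9 differed in their pattern at 7 dpi. Both are given 5′ to 3′ on the strand of the gene, Ccl8 from chr11:82114935-82115234 on the plus strand and Ccl9 from chr11:83578587-83578886 on the minus strand. Capitals mark the matches to the motifs named after them.
Ccl8: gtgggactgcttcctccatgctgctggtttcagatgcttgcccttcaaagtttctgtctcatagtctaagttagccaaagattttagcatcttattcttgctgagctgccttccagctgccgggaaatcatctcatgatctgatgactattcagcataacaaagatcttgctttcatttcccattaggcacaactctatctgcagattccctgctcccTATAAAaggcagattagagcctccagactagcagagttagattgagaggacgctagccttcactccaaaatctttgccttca
Ccl9: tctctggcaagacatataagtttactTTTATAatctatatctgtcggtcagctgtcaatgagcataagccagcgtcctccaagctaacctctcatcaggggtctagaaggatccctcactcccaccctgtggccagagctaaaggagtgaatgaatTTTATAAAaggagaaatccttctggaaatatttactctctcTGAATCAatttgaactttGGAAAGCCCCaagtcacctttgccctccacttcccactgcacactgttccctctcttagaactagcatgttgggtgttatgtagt
The searched motifs were a TATA box (TATAAA), AP-1 (TGANTCA), NF-kB (GGGNNNNNCC), STAT (TTCNNNGAA), STAT6 (TTCNNNNGAA) and an interferon-stimulated response element (GAAA, any 2 bases and GAAA), each on both strands, where N is any base. Ccl8 held 1 match, the TATA box starting at base -32 from the start. Ccl9 held an AP-1 match starting at base -53, an NF-kB match on the opposite strand at base -35 and 3 TATA box matches, at base -224 and, overlapping each other on opposite strands, at bases -94 and -92. The windows of Ccl3 and Ccl6 held 0 matches to the 6 motifs. Over 32851 promoters of the table, 13.6% held the TATA box letters, 7.81% AP-1, 50.8% NF-kB, 8.3% STAT, 6.95% STAT6 and 3.44% the interferon element. These are matches of letters and were not tested as binding sites.

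FAPs carried large amounts of a few CC ligands and traces of others. Ccl2, Ccl7 and Ccl11 together made up between 92.4% and 97.1% of the summed TPM of the 9 genes in each library. The sum was 6810 ± 289 TPM in control and 4148 ± 269 in Osr1cKO at 3 dpi, and 2864 ± 315 and 2632 ± 281 TPM at 7 dpi (mean ± SD, n = 2). It thus took 0.243% to 0.701% of all TPM in a library. The control libraries at 3 dpi lay above the other 6 in this sum, the Osr1cKO libraries at 3 dpi came next, and the genotypes overlapped at 7 dpi. Among all genes ranked by TPM, Ccl2 stood at rank 21 to 44 at 3 dpi and 146 to 166 at 7 dpi, and Ccl7 at rank 40 to 114 over the 8 libraries.

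**Figure D1:**
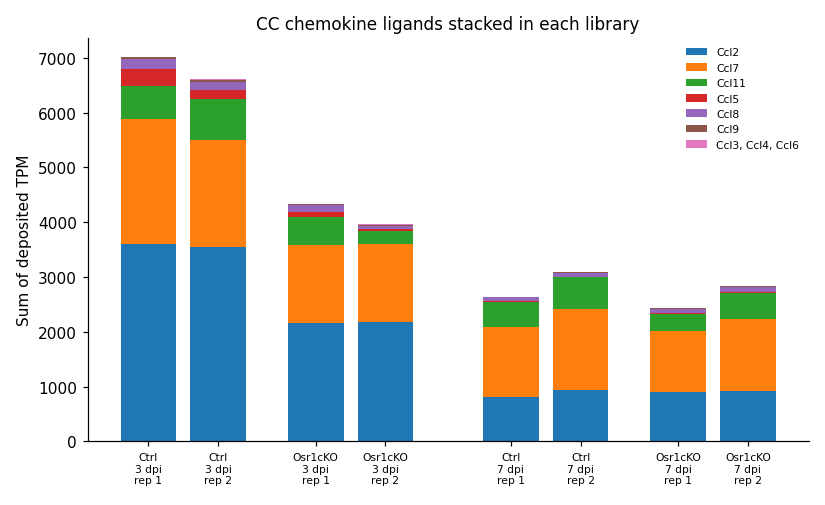
Stacked bars give the sum of deposited TPM of the 9 CC chemokine ligands in each of the 8 libraries, 2 replicates (rep) per group, with the y axis from 0. Ccl2, Ccl7 and Ccl11 fill 92.4% to 97.1% of each bar, and the bars of the control libraries at 3 dpi (7015 and 6606 TPM) stand above the other 6.

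The remaining ligands covered a wide range. Ccl8 averaged between 76.4 and 167 TPM over the 4 groups, Ccl5 between 13.5 and 237 TPM and Ccl9 between 5.87 and 32.7 TPM. Ccl4, Ccl6 and Ccl3 were close to the limit of these libraries, with group means of 0.209 to 6.32 TPM, 0.753 to 1.13 TPM and 0.103 to 0.679 TPM. Ccl6 rested on 12 to 32 fragments per library. Ccl3 rested on 0 to 6 fragments per library and was left out of every test by the filter on low values. The library with 0 Ccl3 fragments, control replicate 1 at 3 dpi, allows a level of up to 0.314 TPM (3 fragments, counting error only).

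**Figure D2:**
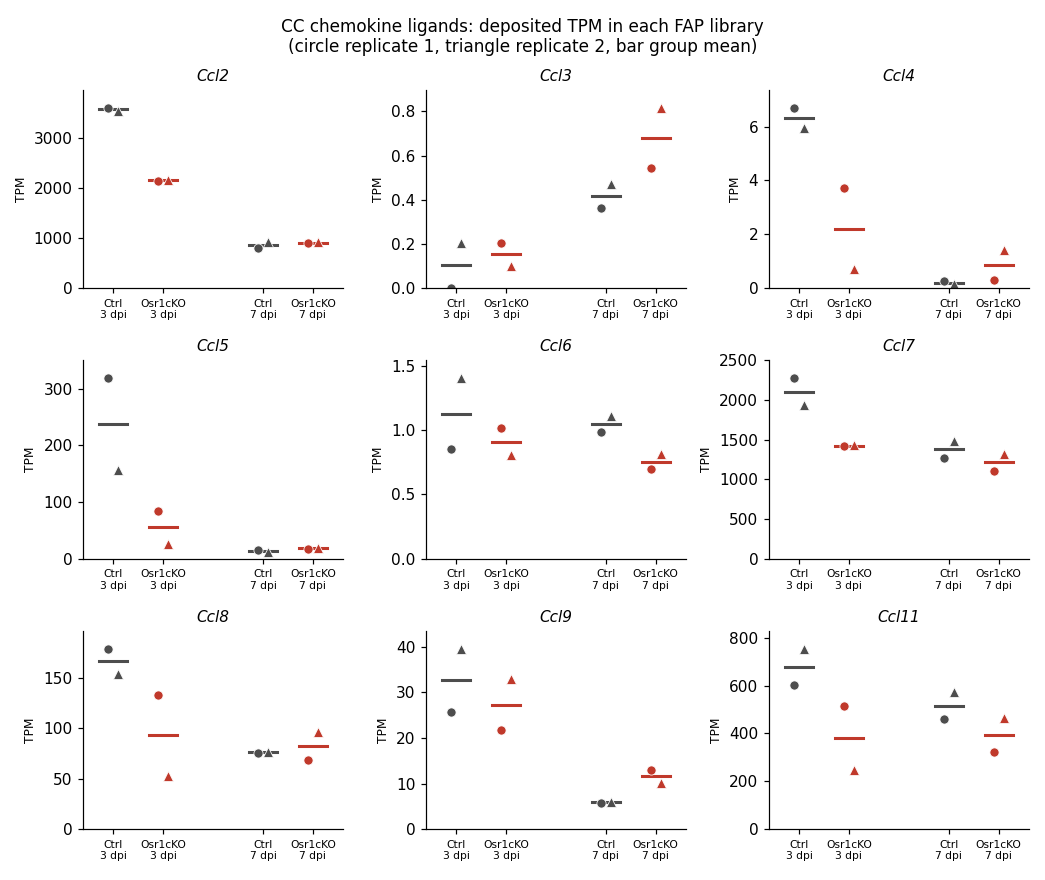
Deposited TPM of each CC chemokine ligand (y axis, from 0, with its own scale per gene) in the 4 groups on the x axis; circles are replicate 1, triangles replicate 2 and bars the mean of the 2 libraries. At 3 dpi the Osr1cKO libraries lie below both control libraries for 6 genes, Ccl2, Ccl4, Ccl5, Ccl7, Ccl8 and Ccl11.

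At 3 dpi, the comparison of genotypes asked whether FAPs that lose Osr1 carry different amounts of these ligands. All 8 tested ligands had a negative log2 fold change in Osr1cKO, as did 48.6% of all 15588 genes tested, and 4 of the 8 passed the threshold used for this day (fold change over 1.2 and unadjusted p under 0.05): Ccl2, Ccl7, Ccl5 and Ccl4. Over all genes, 6.29% passed in either direction and 3.93% passed downward. None of the 8 ligands passed after adjustment over all genes (adjusted p between 0.771 and 0.924 in limma), and with this adjustment 0 of the 15588 genes (0.00%) passed at 0.1. The median log2 fold change was -0.83 over the 8 ligands and 0.01 over all genes tested. Ccl4 came through the filter on low values because of its level on the control side, so this count and this median are descriptions only.

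Ccl2, the main ligand of the monocyte receptor CCR2, had 3608 and 3556 TPM in the control libraries and 2153 and 2173 TPM in the Osr1cKO libraries. The groups did not overlap and the libraries within each group differed by 1.01 times. The log2 fold change was -0.73 (SE 0.22, limma unadjusted p = 0.0223, adjusted p = 0.771). Ccl7, which also binds CCR2, had 2274 and 1940 TPM in control libraries against 1425 and 1427 in Osr1cKO libraries. The Osr1cKO values were below the control values in each library, with a mean of 0.677 times that of control. The log2 fold change of Ccl7 was -0.56 (SE 0.20, limma unadjusted p = 0.0390, adjusted p = 0.784).

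Ccl8, the remaining monocyte chemoattractant gene, had 179 and 154 TPM in control libraries against 133 and 53.2 in Osr1cKO libraries. The groups did not overlap, but the pair of Osr1cKO libraries lay 2.51 times apart. Its log2 fold change of -0.97 (SE 0.44) had an unadjusted p of 0.0803 in limma and did not pass. Ccl11 had 603 and 753 TPM in control libraries against 516 and 245 in Osr1cKO libraries, again without overlap. Its log2 fold change was -0.92 (SE 0.39, limma unadjusted p = 0.0643), which did not pass either.

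Ccl5 (RANTES), a ligand of CCR1 that many interferon-exposed cells make, showed the lowest ratio of the 9 genes. It had 318 and 156 TPM in control libraries against 84.5 and 25.5 in Osr1cKO libraries, which is 0.232 times the control mean. The groups did not overlap although the replicates differed by 2.04 times in control and 3.31 times in Osr1cKO. The log2 fold change was -2.23 (SE 0.64, limma unadjusted p = 0.0173, adjusted p = 0.771). Ccl4, a chemokine best known from activated macrophages and lymphocytes, had 6.69 and 5.95 TPM in control (55 and 50 fragments) and 3.71 and 0.694 TPM in Osr1cKO (31 and 6 fragments). Its log2 fold change was -1.37 (SE 0.51, limma unadjusted p = 0.0427, adjusted p = 0.785), on a scale of TPM + 1 that understates changes at such low levels. Ccl3, a relative of Ccl4, had 0 and 0.205 TPM in control libraries against 0.206 and 0.0997 in Osr1cKO libraries, 0 to 2 fragments per library, at which depth no difference was detectable.

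For Ccl9 and Ccl6, the groups overlapped. Ccl9 had 25.7 and 39.6 TPM in control libraries against 21.7 and 32.9 in Osr1cKO libraries (log2 fold change -0.25, 95% interval -0.98 to 0.49). Ccl6 had 0.850 and 1.40 TPM in control libraries against 1.01 and 0.808 in Osr1cKO libraries (log2 fold change -0.14, 95% interval -0.65 to 0.37). In deposited TPM, 6 of the 9 genes were lower in Osr1cKO without overlap between the groups, and 18.0% of all genes tested were lower without overlap.

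The Osr1cKO libraries at 3 dpi parted the ligands into those that were alike in both mice and those that were not. Ccl2 and Ccl7 differed between the pair of Osr1cKO libraries by 1.01 and 1.001 times. Ccl11, Ccl8, Ccl5 and Ccl4 differed by 2.11, 2.51, 3.31 and 5.35 times, each with replicate 1 above replicate 2. Ccl9 differed by 1.52 times with replicate 2 above replicate 1. Over the same libraries, 16 macrophage and monocyte markers summed to 26.7 and 29.2 TPM in control libraries against 31.0 and 14.2 in Osr1cKO libraries, and 9 T and NK cell markers to 0.438 and 0.216 TPM in control libraries against 0.0784 and 0.348 in Osr1cKO libraries, with 7 of the 9 at 0 in both libraries of each genotype. Ptprc was at 0.0263 and 0.0515 TPM in control libraries against 0.0475 and 0.00834 in Osr1cKO libraries. The macrophage marker sum was thus lowest in the same library, Osr1cKO replicate 2, in which Ccl4, Ccl5, Ccl8 and Ccl11 were lowest among the 3 dpi libraries. Single markers of this list were lowest there too, except Csf1r, Cx3cr1 and Adgre1. Csf1r was highest there, at 1.03 TPM against 0.821 in Osr1cKO replicate 1 and 0.528 and 0.776 in control libraries. The part of these markers in the result was not tested.

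The 4 passing ligands kept their direction when any single library was left out, but not always their side of the threshold. Without Osr1cKO replicate 1 or without Osr1cKO replicate 2, the log2 fold change of Ccl2 stayed at -0.74 or -0.71, while its unadjusted p in limma became 0.126 or 0.146, with a lone Osr1cKO library assumed to vary like the controls. Ccl7 did not pass without control replicate 1 (unadjusted p = 0.0710) or without either Osr1cKO library (0.160 and 0.195). Ccl5 did not pass without control replicate 1 (log2 fold change -1.73, unadjusted p = 0.0754), and without Osr1cKO replicate 2 its log2 fold change was -1.36. Ccl4 did not pass without control replicate 1, control replicate 2 or Osr1cKO replicate 2 (unadjusted p = 0.116, 0.0879 and 0.114), and its log2 fold change lay between -2.12 and -0.62. Without Osr1cKO replicate 1, Ccl8 and Ccl11 passed, at log2 fold changes of -1.65 and -1.48. Without Osr1cKO replicate 2, they came out at -0.29 and -0.36 and did not pass (limma unadjusted p = 0.239 and 0.262). Ccl6 and Ccl9 came out at 0.04 and 0.05 without control replicate 2, and Ccl9 at 0.02 without Osr1cKO replicate 1.

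**Figure D3:**
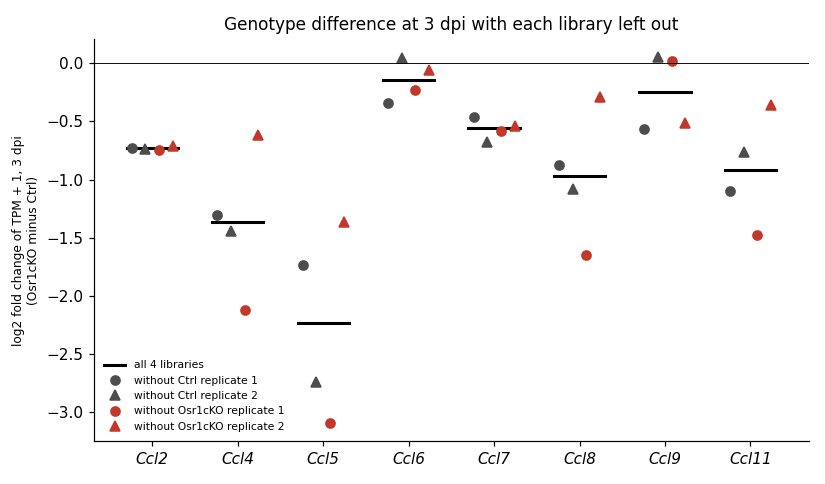
Log2 fold change of TPM + 1 at 3 dpi, Osr1cKO minus control, for the 8 tested ligands on the x axis; black lines use the 4 libraries of that day, grey and red symbols leave out 1 control or Osr1cKO library (circles replicate 1, triangles replicate 2). Ccl2 stays between -0.74 and -0.71, whereas Ccl5 ranges from -3.10 to -1.36.

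At 7 dpi, none of the 7 tested ligands passed the threshold of that day (fold change over 1.2 and adjusted p under 0.1 in limma), where 0.0670% of the 16426 genes tested passed. At an unadjusted p under 0.05, 2 of the 7 passed, Ccl9 upward and Ccl11 downward, and 11.2% of all genes tested did, 5.25% upward and 5.94% downward. The median log2 fold change was -0.07 over the 7 ligands against 0.0045 over all genes. Ccl3 and Ccl4 had too few fragments to be tested.

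Ccl9 had 5.79 and 5.95 TPM in control libraries against 13.0 and 10.2 in Osr1cKO libraries. Both Osr1cKO libraries lay above both controls, which were within 1.03 times of each other. The log2 fold change was 0.75 (SE 0.16, limma unadjusted p = 0.00488, adjusted p = 0.261), and between 0.56 and 0.93 when single libraries were left out. Macrophage and monocyte markers in these libraries summed to 63.6 and 79.8 TPM in control libraries against 73.5 and 108 in Osr1cKO libraries, with 12 of the 15 tested higher, 0 passing and 1 (Csf1r) at an unadjusted p under 0.05, and 5 neutrophil markers to 3.23 and 9.03 TPM in control libraries against 8.13 and 15.8 in Osr1cKO libraries. Their part in the Ccl9 difference was not tested. Ccl6, a close relative of Ccl9, was on the other side, with 0.982 and 1.11 TPM in control libraries against 0.695 and 0.812 in Osr1cKO libraries (log2 fold change -0.29, limma unadjusted p = 0.0705).

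Ccl11 had 459 and 573 TPM in control libraries against 322 and 464 in Osr1cKO libraries. These values overlapped slightly, and the log2 fold change after scaling was -0.54 (SE 0.18, limma unadjusted p = 0.0288, adjusted p = 0.348). Ccl7 had 1272 and 1488 TPM in control libraries against 1111 and 1323 in Osr1cKO libraries (log2 fold change -0.31, SE 0.13, limma unadjusted p = 0.0585). Ccl2 had 811 and 929 TPM in control libraries against 899 and 916 in Osr1cKO libraries, a log2 fold change of -0.07 with a 95% interval from -0.33 to 0.20. Ccl8 had 76.1 and 76.8 TPM in control libraries against 68.2 and 96.3 in Osr1cKO libraries, a log2 fold change of -0.05 with a 95% interval from -0.42 to 0.32. The signs of Ccl2 and Ccl8 turned (0.06 and 0.08) in deposited TPM with no further scaling, where the median of all genes moved to 0.11.

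Ccl5 had 15.8 and 11.2 TPM in control libraries against 17.8 and 18.1 in Osr1cKO libraries (log2 fold change 0.28, SE 0.17, limma unadjusted p = 0.171). Ccl4 had 0.281 and 0.137 TPM in control libraries against 0.315 and 1.42 in Osr1cKO libraries, on 2, 1, 2 and 9 fragments. Ccl3 had 0.363 and 0.473 TPM in control libraries against 0.543 and 0.815 in Osr1cKO libraries, on 3, 4, 4 and 6 fragments. In deposited TPM, 4 of the 9 ligands (Ccl3, Ccl4, Ccl5 and Ccl9) were higher in Osr1cKO without overlap and 1 (Ccl6) was lower, and among all genes tested 43.0% were higher and 10.7% lower without overlap.

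**Figure D4:**
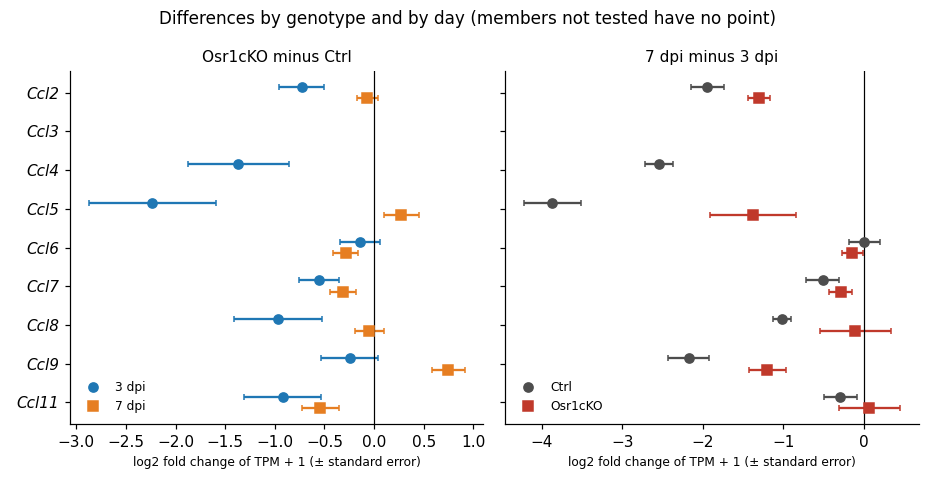
Points are log2 fold changes of TPM + 1 with their standard errors from limma, for genotype at each day (left, Osr1cKO minus control) and for day in each genotype (right, 7 dpi minus 3 dpi). The 8 points for 3 dpi genotype lie at or left of -0.14, and Ccl9 (0.75) and Ccl5 (0.28) lie right of 0 at 7 dpi; ligands not tested have no point.

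Between the days in control FAPs, 5 of the 8 tested ligands fell from 3 to 7 dpi (fold change over 1.2 and adjusted p under 0.05 in limma): Ccl2, Ccl4, Ccl5, Ccl8 and Ccl9. Of the 16392 genes tested, 38.1% passed in either direction, 17.8% rose and 20.3% fell. Ccl4 came through the filter on low values only because of its level at 3 dpi, so its place in this count is a description only, and 4 of the other 7 tested ligands fell. Ccl5 fell by 3.87 on the log2 scale (SE 0.35, limma adjusted p = 0.00411), from 318 and 156 TPM to 15.8 and 11.2 TPM. Ccl9 fell by 2.17 (SE 0.25, limma adjusted p = 0.00591), and Ccl2 fell by 1.95 (SE 0.20, limma adjusted p = 0.00498). Ccl8 fell by 1.01 (SE 0.11, limma adjusted p = 0.00532). For Ccl4, 105 fragments over both control libraries at 3 dpi stood against 3 at 7 dpi, a ratio per sequenced fragment of 29.7 (exact 95% interval 9.88 to 146, counting error only). In a fit of all 8 libraries Ccl8 did not pass (limma adjusted p = 0.0610) and Ccl7 did (0.0358). Without control replicate 1 at 7 dpi, Ccl2 had a limma adjusted p of 0.0561 and did not pass.

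Ccl7, Ccl11 and Ccl6 did not pass in this comparison. Ccl7 had a log2 fold change of -0.51 (SE 0.21, limma adjusted p = 0.112), although its control libraries did not overlap between the days. Ccl11 had -0.30 (95% interval -0.82 to 0.23) and Ccl6 0.0037 (95% interval -0.49 to 0.50). Ccl7 passed without control replicate 2 at 3 dpi (log2 fold change -0.62) and Ccl11 without control replicate 1 at 3 dpi (-0.52). In both of these fits Ccl4 did not come through the filter on low values.

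In Osr1cKO FAPs, 2 of the 7 tested ligands fell from 3 to 7 dpi, and 46.8% of the 16162 genes tested passed, 24.8% downward. Ccl2 fell by 1.30 on the log2 scale (SE 0.13, limma adjusted p = 0.00221) and Ccl9 fell by 1.199 (SE 0.23, limma adjusted p = 0.0116). Ccl5 had a log2 fold change of -1.38 (SE 0.54, limma adjusted p = 0.0851) and Ccl7 of -0.29 (SE 0.14, limma adjusted p = 0.154). The log2 fold change of Ccl5 was -0.54 without Osr1cKO replicate 1 of 3 dpi and -2.26 without replicate 2. With 1 of these libraries left out, the lone 3 dpi library is assumed to vary like the 7 dpi pools. A ligand that passes in such a fit does so without the difference between the 3 dpi mice. Ccl8 (-0.11, 95% interval -1.21 to 0.999) and Ccl11 (0.07, 95% interval -0.89 to 1.02) had wide intervals, and Ccl6 had -0.15. The number passing was 5 without Osr1cKO replicate 1 at 3 dpi, where Ccl8 and Ccl11 came out higher at 7 dpi (0.54 and 0.60), and 4 without Osr1cKO replicate 2 at 3 dpi, where Ccl8 was lower (-0.79). Without Osr1cKO replicate 2 at 7 dpi it was 1, since Ccl9 had an adjusted p of 0.0717 in limma. The direction of Ccl8 and Ccl11 over time in Osr1cKO therefore rested on which 3 dpi mouse was used.

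The order of the groups differed among the ligands. For Ccl2 it was control 3 dpi, Osr1cKO 3 dpi and then both 7 dpi groups, whose libraries overlapped. For Ccl5 it was the same with no overlap between neighbours, down to 17.9 TPM in Osr1cKO and 13.5 TPM in control at 7 dpi. For Ccl7, control at 3 dpi (2107 ± 236 TPM, mean ± SD) stood above the other groups (Osr1cKO at 3 dpi 1426 ± 1.42, control at 7 dpi 1380 ± 152 and Osr1cKO at 7 dpi 1217 ± 150), which overlapped their neighbours. For Ccl11, control at 3 dpi (678 ± 106 TPM) stood above control at 7 dpi (516 ± 81.0) without overlap, and Osr1cKO at 7 dpi (393 ± 100) and 3 dpi (381 ± 192) overlapped each other and control at 7 dpi. For Ccl8, control at 3 dpi stood above the other groups, which overlapped their neighbours. For Ccl9, both 3 dpi groups overlapped each other and lay above Osr1cKO at 7 dpi, which lay above control at 7 dpi. For Ccl6, each group overlapped the next. For Ccl4, the Osr1cKO groups of both days overlapped between the control groups, and for Ccl3 the 7 dpi groups were above the 3 dpi groups on at most 6 fragments a library.

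Whether the genotype difference itself changed between the days was tested as an interaction over the 8 libraries. None of the 8 tested ligands passed (fold change over 1.2 and adjusted p under 0.05 in limma; adjusted p between 0.644 and 0.971), and 0.00% of the 17226 genes tested did. At an unadjusted p under 0.05, 4 of the 8 passed with a positive interaction, where 6.76% of all genes tested passed and 3.64% with a positive sign. These were Ccl5 (2.50 on the log2 scale, SE 0.76, limma unadjusted p = 0.0133), Ccl2 (0.65, SE 0.22, limma unadjusted p = 0.0198), Ccl4 (1.87, SE 0.67, limma unadjusted p = 0.0259) and Ccl9 (0.98, SE 0.38, limma unadjusted p = 0.0368). The filter on low values kept Ccl4 only for its level at 3 dpi, so its place among these 4 is a description only. The interval for Ccl7 ran from -0.32 to 0.79 and that for Ccl11 from -0.80 to 1.55. A difference that passed at 3 dpi and not at 7 dpi is thus not shown to differ between the days once adjusted over all genes.

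The proportions among the ligands within a library are free of scaling between libraries. Ccl2 exceeded Ccl7 in each 3 dpi library, and Ccl7 exceeded Ccl2 in each 7 dpi library. At 3 dpi the ratio of Ccl7 to Ccl2 was 0.630 and 0.545 in control libraries against 0.662 and 0.657 in Osr1cKO libraries. At 7 dpi it was 1.57 and 1.60 in control libraries against 1.24 and 1.44 in Osr1cKO libraries. The genotypes did not overlap in this ratio on either day, with Osr1cKO above control at 3 dpi and below it at 7 dpi. Ccl11 relative to Ccl2 went from 0.113 to 0.240 over the 3 dpi libraries to 0.358 to 0.617 over the 7 dpi libraries, and Osr1cKO at 7 dpi (0.358 and 0.506) lay below control (0.566 and 0.617). Ccl5 relative to Ccl2 was 0.0881 and 0.0438 in control and 0.0393 and 0.0118 in Osr1cKO at 3 dpi. With 2 libraries a group, an exact permutation test of such a ratio could not go below p = 0.333 (two-sided), so none was run.

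**Figure D5:**
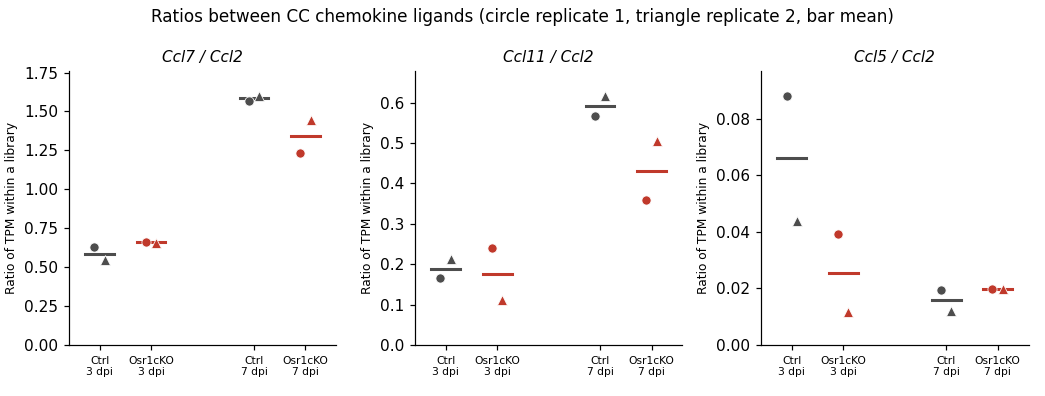
Ratio of TPM between a pair of ligands within each library (y axis, from 0) in the 4 groups; circles are replicate 1, triangles replicate 2 and bars the mean. Ccl7 over Ccl2 spans 0.545 to 0.662 at 3 dpi and 1.24 to 1.60 at 7 dpi.

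The other 14 CC ligand genes of the table were nearly silent, with a summed level of 8.14 to 11.3 TPM per library. Of the 6 tested at 3 dpi, where 6.29% of all genes tested passed, 2 were higher and 4 lower, and 1 passed. This was Ccl20, a ligand of CCR6 known for attracting Th17 cells and immature dendritic cells, with 2.37 and 1.66 TPM in control libraries against 3.73 and 4.08 in Osr1cKO libraries. Its sign was opposite to that of the 8 tested ligands above (log2 fold change 0.71, SE 0.21, limma unadjusted p = 0.0188, adjusted p = 0.771). Ccl20 at 7 dpi had 1.31 and 0.574 TPM in control libraries against 2.20 and 2.20 in Osr1cKO libraries (log2 fold change 0.67, limma unadjusted p = 0.0244, adjusted p = 0.338). Ccl12, a further monocyte chemoattractant gene of the mouse, had 1.05 and 3.51 TPM in control libraries against 2.65 and 0.427 in Osr1cKO libraries at 3 dpi, with overlap.

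The receptors that these ligands signal through were close to absent from the sorted cells. Of 15 receptor genes, 11 or 12 stayed under 1 TPM in both libraries of each group, and Ccr2, the receptor of Ccl2 and Ccl7, was at 0 to 0.185 TPM. Ccr1 (0.0809 to 0.294 TPM) was nearly as low. The receptors that reached 1 TPM in a library were atypical ones without G protein signalling: Ackr1, Ackr2, Ccrl2 and, at 7 dpi only, Ackr4. Ackr4 had 0.0147 to 0.388 TPM over the 3 dpi libraries and 1.12 to 2.09 TPM over the 7 dpi libraries. At 3 dpi, 5 were tested, all with negative log2 fold changes, and 1 passed. Of all genes tested, 48.6% had a negative log2 fold change and 3.93% passed downward. The 5 included Ccr9, which had only 0.0154 to 0.141 TPM at 3 dpi. Ackr1, known for binding many inflammatory chemokines, had 21.1 and 14.7 TPM in control libraries against 10.4 and 11.0 in Osr1cKO libraries (log2 fold change -0.67, SE 0.22, limma unadjusted p = 0.0265). Ccrl2, which binds chemerin, had 17.8 and 14.9 TPM in control libraries against 10.9 and 2.94 in Osr1cKO libraries (log2 fold change -1.33, SE 0.54, limma unadjusted p = 0.0573). At 7 dpi 0 of 6 tested receptors passed in limma, also at an unadjusted p under 0.05. From 3 to 7 dpi in control FAPs, Ackr4, which scavenges other CC ligands, rose by 1.15 on the log2 scale and Ccrl2 fell by 0.98 (limma adjusted p = 0.0151 and 0.0140).

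A list of 22 receptors and factors upstream of these genes, of the TNF, interleukin, Toll-like receptor, interferon and NF-kB pathways, was expressed throughout, with a sum of 3792 to 4322 TPM. By genotype, 0 of the 22 passed at 3 dpi (6 higher, 16 lower, median log2 fold change -0.13) and 0 of the 22 at 7 dpi (5 higher, 17 lower, median -0.09; 2 at an unadjusted p under 0.05 in limma, Myd88 and Irf1). The gene with the smallest p at 3 dpi was Tlr2, with 22.4 and 12.2 TPM in control libraries against 9.52 and 9.45 in Osr1cKO libraries (limma unadjusted p = 0.0549). Irf1, a transcription factor induced by interferon gamma, had 134 and 86.3 TPM in control libraries against 80.7 and 50.9 in Osr1cKO libraries (log2 fold change -0.74, limma unadjusted p = 0.0646), and at 7 dpi 256 and 255 against 161 and 237 TPM (log2 fold change -0.52, limma unadjusted p = 0.0222, adjusted p = 0.332). Of all genes tested at 3 dpi, 48.6% were lower and 6.29% passed, and at 7 dpi 11.2% passed at an unadjusted p under 0.05. From 3 to 7 dpi in control, 5 of the 22 rose and 5 fell, where 17.8% of all genes tested rose and 20.3% fell. Irf1 rose by 1.34 on the log2 scale (limma adjusted p = 0.00998).

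Among 6 genes that destabilise chemokine transcripts or trim the proteins, 0 passed by genotype at either day in limma, and 1 had an unadjusted p under 0.05 at 7 dpi. This was Zfp36l1, with a log2 fold change of -0.38 at 7 dpi (limma unadjusted p = 0.0298, adjusted p = 0.350). Zfp36 (tristetraprolin), which binds AU-rich elements, had 1944 and 2428 TPM in control libraries against 1319 and 2024 in Osr1cKO libraries at 7 dpi (log2 fold change -0.54, limma unadjusted p = 0.0549). From 3 to 7 dpi in control FAPs, 5 of the 6 rose, where 17.8% of all genes tested rose. Among the 5 were Zfp36, by 1.13, and Mmp2, a gelatinase that can cleave monocyte chemoattractant proteins, by 1.48 on the log2 scale (limma adjusted p = 0.0212 and 0.0117).

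Markers of other cell types moved with the days. From 3 to 7 dpi in control, 6 of the 16 tested macrophage and monocyte markers, 3 of 5 endothelial and 3 of 5 muscle stem cell and myofiber markers rose and none of these fell, where 17.8% of all genes tested rose and 20.3% fell. Some of the risers came through the filter on low values only for their level at 7 dpi, so these counts are descriptions only. Among them were Ckm (0.0827 and 0.243 TPM at 3 dpi, 3.15 and 1.74 at 7 dpi) and Cx3cr1 (0.0713 and 0.0523 TPM, then 0.618 and 0.624). The summed level went from 26.7 and 29.2 TPM to 63.6 and 79.8 TPM for macrophage and monocyte markers, and from 7.24 and 9.11 TPM to 33.6 and 54.6 TPM for muscle stem cell and myofiber markers. Endothelial markers summed to 44.4 and 21.2 TPM in control libraries against 17.2 and 18.0 in Osr1cKO libraries at 3 dpi. Most of each sum was Tek (25.4 and 16.5 against 14.9 and 15.4 TPM), with Kdr in control replicate 1. Kdr had 16.8 and 2.25 TPM in control libraries against 1.12 and 0.880 in Osr1cKO libraries. Mast cell and eosinophil markers summed to at most 0.338 TPM in any library. The FAP marker Ly6a, which is induced by interferon in many cells, was lower in Osr1cKO at 3 dpi (log2 fold change -0.95, limma unadjusted p = 0.0359). It was the only 1 of the 8 FAP markers that passed there, where 6.29% of all genes tested passed. The part of these markers in the ligand levels was not tested.

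For the 3 ligands of highest mean TPM, the genes of most similar profile were named by Pearson r of log2(TPM + 1) over the 8 libraries, among 14681 genes with a mean TPM of at least 1. Nearest to Ccl2 were Bahcc1 (r = 0.997), Ehd2 (0.994) and Slco2a1 (0.992). Nearest to Ccl7 were Cadps2 (0.987), Taok3 (0.982) and Zfp710 (0.979). Nearest to Ccl11 were Metrnl (0.970), Irf9 (0.959) and Hs1bp3 (0.947). Irf9, a subunit of the interferon-activated factor ISGF3, had 53.6 and 51.4 TPM in control libraries against 46.5 and 23.0 in Osr1cKO libraries at 3 dpi. The Osr1cKO libraries ranked as for Ccl11, and the control libraries ranked the other way (Ccl11 603 and 753 TPM). Irf9 was picked by its r over these same libraries. The neighbours of Ccl11 in the gene cluster were farther off: Ccl8 stood at position 61 (r = 0.820), Ccl7 at position 347 (r = 0.634) and Ccl2 at position 1535 (r = 0.336) in the list for Ccl11. The 8 points share the steps between days and genotypes, so these r values are descriptions.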

How the data were processed

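RNA-seq was from GFP+ FAPs of control and Osr1cKO mice, 2 libraries per group. The authors aligned stranded paired-end reads of polyadenylated RNA with STAR to mm10, normalized fragment counts with DESeq2 and deposited TPM per gene symbol. The headers of both 7 dpi Osr1cKO tables name the group cKO1 where the sample titles have cKO, and these tables were assigned by sample record and title. The counter and its annotation were not given in the sources used here. Of 55385 entries, 109 repeats of 106 symbols were left out. With GENCODE exon lengths, 98.7% to 98.9% of the values below 50 fragments came out whole (tolerance 0.02), which gave the depth of each library; counting error is largest for the ligands of lowest level.

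Libraries were scaled with the mean log ratio after 30% trimming, and log2(TPM + 1) was fitted with limma 3.58.1 (lmFit, eBayes with trend; R 4.3.3) over all genes with at least 10 fragments in 2 libraries and 15 in total; 1995 symbols without a length were kept at a mean TPM of at least 1. Adjusted p-values are Benjamini-Hochberg values over all genes tested, and tests are two-sided. The thresholds for the genotype comparisons are those of the study's methods. The fit was tested on simulated data. Tables and plots were made with Python 3.11.15, pandas 2.3.3, NumPy 2.4.6 and matplotlib 3.10.9.

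The 9 ligands and the gene lists were chosen with earlier results of these data known. Each ligand was named in every comparison, and at most 4 tested genes of smallest p of each other list. Alternatives were other scalings, pseudocounts, filters, thresholds, limma-voom on recovered fragments, robust eBayes, a fit of all 8 libraries, a replicate block and leaving out each library. Mice differed between 3 dpi libraries, and pools between 7 dpi libraries. Ccr1, Ccr2, Ptprc, Cx3cr1 and Adgre1, outside this rule, were named after their values were seen, as were the promoters printed. No deposited column of test results was used.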

Additional observations from a re-analysis of the deposited data

Results flagged for a closer look

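Ccl4 and Ccl5 were flagged because the libraries of the 2 genotypes parted in opposite directions on the 2 days. The flag used these same libraries, so the tests and ranges given here are descriptions only. For Ccl5, both Osr1cKO libraries lay below both controls at 3 dpi (84.5 and 25.5 against 318 and 156 TPM) and above both at 7 dpi (17.8 and 18.1 against 15.8 and 11.2 TPM). The test of this difference gave 2.50 on the log2 scale (limma unadjusted p = 0.0133, adjusted p = 0.644), which failed the adjustment. For Ccl4, the Osr1cKO libraries were below the controls at 3 dpi (3.71 and 0.694 against 6.69 and 5.95 TPM) and above them at 7 dpi (0.315 and 1.42 against 0.281 and 0.137 TPM, on 1 to 9 fragments). At 7 dpi, Osr1cKO replicate 1 and control replicate 1 both held 2 Ccl4 fragments, so counts did not part these libraries. The difference for Ccl4 between the days was 1.87 on the log2 scale (limma unadjusted p = 0.0259, adjusted p = 0.703). The filter on low values kept Ccl4 only for its level at 3 dpi. At 7 dpi, 43.0% of all genes tested were higher in Osr1cKO without overlap in deposited TPM. Leaving out single libraries gave 1.63 to 3.35 for Ccl5 and 1.12 to 2.62 for Ccl4.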

How the results depend on the processing

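The number of ligands that passed at 3 dpi was 4, and it was 1 with no filter on low values (Ccl5), 0 at an adjusted p under 0.1, and between 1 and 4 without single libraries. At 7 dpi it was 0, and 2 at an unadjusted p under 0.05. From 3 to 7 dpi it was 5 in control and 2 in Osr1cKO, and which ligands passed changed when single libraries were left out. Without either control library of 3 dpi, Ccl4 did not come through the filter on low values, and Ccl11 or Ccl7 passed in its place. In the interaction the number was 0, and 4 at an unadjusted p under 0.05, with Ccl4 among them as a description only. Other scalings, pseudocounts, robust eBayes and limma-voom kept these counts within 1.5 times. A fit of all 8 libraries gave 6 at 3 dpi and 5 between days in control, there with Ccl7 (limma adjusted p = 0.0358) and without Ccl8 (0.0610). More of all genes passed in that fit as well. At 3 dpi 857 were called higher and 929 lower of 17226, against 368 and 613 of 15588 in the main fit. Between days in control 3704 were called higher and 4168 lower, against 2917 and 3323 of 16392. Scaling moved summed TPM by less than the SD between replicates of the unscaled sums. Directions turned for log2 fold changes near 0: Ccl2 (0.0648) and Ccl8 (0.0837) at 7 dpi and Ccl6 (-0.0433) between days in control with no further scaling, Ccl6 (-0.0312) and, between days in Osr1cKO, Ccl11 (-0.0165) with no filter, and Ccl6 (-0.0045) in control in the fit of all 8 libraries. Without single libraries, the ranges that crossed 0 were, at 3 dpi, Ccl6 (-0.34 to 0.045) and Ccl9 (-0.56 to 0.0543); at 7 dpi, Ccl2 (-0.16 to 0.0219) and Ccl8 (-0.26 to 0.17); between days, Ccl6 in control (-0.21 to 0.20) and Ccl8 (-0.79 to 0.54) and Ccl11 (-0.50 to 0.60) in Osr1cKO; and in the interaction, Ccl6 (-0.35 to 0.0615) and Ccl11 (-0.18 to 0.92). The cause was not tested.

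Same-numbered libraries came from different mice or pools, no source used here gives a preparation day or batch for them, and same-numbered libraries did not deviate together (r between -0.16 and 0.06). With the replicate number as a block, 3 ligands passed at 3 dpi (Ccl4, Ccl5 and, at an unadjusted p of 0.0300, Ccl8, but neither Ccl2 at 0.0761 nor Ccl7 at 0.0975), 0 at 7 dpi, 5 between days in control, 2 in Osr1cKO and 0 in the interaction. With the numbers crossed, an alternative added after the data were seen, 5 passed at 3 dpi and 5 between days in control. Of all 15588 genes tested at 3 dpi, 478 were then called higher and 711 lower, against 368 and 613 in the main fit. At 7 dpi, limma-voom called 74 genes higher and 113 lower, against 3 and 8, and 0 where genes needed a mean TPM of 1, with no filter or in the fit of all 8 libraries; 0 of the ligands passed in any of these. Depth limits Ccl3, Ccl4 and Ccl6.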
